A study of Mus musculus with 6 samples.

Results

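Neurexins, neuroligins and leucine-rich repeat transmembrane neuronal proteins (Lrrtm) were followed in retinal ganglion cells (RGCs) at embryonic day 18 (E18) and postnatal day 5 (P5). The genes were taken by symbol from the table of gene counts, and all 9 were found among its 24060 genes: Nrxn2, Nrxn3, Nlgn1, Nlgn2, Nlgn3, Lrrtm1, Lrrtm2, Lrrtm3 and Lrrtm4. RNA-seq had been run on 3 E18 samples, numbered 1, 3 and 4, and 3 P5 samples, numbered 6, 8 and 9, all from C57BL/6 mice. Both ages were handled alike, with retinas dissociated by papain, macrophages removed with antibodies, and RGCs held on dishes coated with antibody against CD90 (Thy1). No transgene or treatment was named at either age. The comparison asked how gene expression differs between RGCs that extend axons readily, at E18, and RGCs that have lost much of this ability, at P5.

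Neurexins are presynaptic adhesion receptors that reach across the synaptic cleft. Neuroligins and Lrrtm proteins are their postsynaptic partners, and together they help to organize the release site and the receptor field that faces it. Within the partners, neuroligin 1 is known for excitatory synapses, neuroligin 2 for inhibitory synapses, neuroligin 3 for both, and the Lrrtm proteins for excitatory synapses. RGCs hold both sides of such contacts, since their dendrites receive input from bipolar and amacrine cells in the retina and their axons form terminals in the brain.

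Of the 9 genes, 6 have a promoter in the RefSeq table of the GRCm38.p6 build, with 10 start sites among them. The 250 bases before the start are shown for Lrrtm1 and for the first start of Lrrtm4, both higher at P5, and for Nlgn2, whose E18 and P5 values overlapped. Lower case letters are plain sequence, and capitals mark a match on either strand to GGGCGG (the GC box of Sp1) or TATAAA (the TATA box). The letters CCGGAAG (a core sequence bound by Elk-1 and its relatives), CACGTG (an E-box) and TGACGTCA (a cAMP response element) were also searched and were not found in these windows. The sequences run 5′ to 3′ on the strand of the gene.
Lrrtm1, chr6:77242227-77242476, plus strand: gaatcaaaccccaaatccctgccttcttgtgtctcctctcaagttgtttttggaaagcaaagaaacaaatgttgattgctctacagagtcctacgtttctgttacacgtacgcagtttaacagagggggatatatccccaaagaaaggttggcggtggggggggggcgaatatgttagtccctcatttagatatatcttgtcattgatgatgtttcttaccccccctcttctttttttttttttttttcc
Lrrtm4, chr6:80018627-80018876, plus strand: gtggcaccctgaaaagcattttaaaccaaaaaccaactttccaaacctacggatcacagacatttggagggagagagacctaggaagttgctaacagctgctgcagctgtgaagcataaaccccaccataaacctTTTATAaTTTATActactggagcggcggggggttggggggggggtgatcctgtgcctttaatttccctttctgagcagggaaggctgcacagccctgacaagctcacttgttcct
Nlgn2, chr11:69837785-69838034, minus strand: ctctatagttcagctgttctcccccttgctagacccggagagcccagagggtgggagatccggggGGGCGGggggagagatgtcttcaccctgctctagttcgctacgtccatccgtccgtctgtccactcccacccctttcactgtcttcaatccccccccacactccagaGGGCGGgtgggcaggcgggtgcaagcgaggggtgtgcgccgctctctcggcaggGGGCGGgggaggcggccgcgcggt

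The 3 promoters differed in base composition. Nlgn2 had 67.6% G and C and 18 CpG dinucleotides, with GC boxes at positions -185, -78 and -24 counted from the start. Lrrtm1 had 42.0% G and C with 5 CpG dinucleotides and none of the letters searched. The window of Lrrtm4 had 49.2% G and C and 3 CpG dinucleotides, with the TATA letters on the minus strand at positions -115 and -108. Over all 32851 promoters of the same length, the median was 6 CpG dinucleotides, 32.7% held GGGCGG and 12.4% held TATAAA. Of the others, CCGGAAG was found in 6.91%, CACGTG in 6.02% and TGACGTCA in 1.55%, and none of these 3 was in any of the 10 windows of the genes described here. A match of letters was not taken as a bound site.

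The depth was 81213639 to 114512853 counts on genes in a sample. Levels below are in CPM, the counts of a gene per 1000000 counts of its sample after scaling by the trimmed mean of M-values (TMM), and fold changes are P5 over E18, so that a positive log2 value is higher at P5. Of 12 RGC markers, 4 were higher at P5 and 3 lower (edgeR, adjusted p below 0.05), where 22.5% and 20.8% of all genes tested were. Thy1, the antigen used to hold the cells, rose from a mean of 247 to 553 CPM, and Isl1 fell from 557 to 260 CPM. The 12 markers, with Tubb3 and Nefl the highest, summed to 7747 to 9602 CPM in a sample. By contrast, 8 photoreceptor markers summed to 3.20 to 9.58 CPM, 7 microglial markers to 1.49 to 2.71, and the 8 Müller glia and astrocyte markers, mostly Glul and Dkk3, to 417 to 506 CPM. Within the Müller glia and astrocyte list, Glul was called lower at P5, with means of 320 CPM at E18 and 251 at P5. Dkk3 was called higher, with means of 123 and 184 CPM. Slc1a3 was at 16.2, 2.80 and 0.475 CPM in E18 replicates 1, 3 and 4 and at 1.11 to 1.78 CPM at P5. Other sums moved with age. The 7 bipolar markers, mostly Prkca, summed to 46.6 to 63.5 CPM at E18 and 69.8 to 97.4 at P5. The 7 oligodendrocyte markers, mostly Mbp, Mog and Cnp, summed to 90.7 to 91.3 CPM at E18 and 53.9 to 73.6 at P5. Of these 7, only Mog was called lower at P5, while Mag and Olig1, with means under 2 CPM at both ages, were called higher. The part of bipolar, oligodendrocyte and Müller glia RNA in the changes below was not tested. E18 replicates 1 and 3 stood apart from E18 replicate 4 in the sums of amacrine, dividing-cell and vessel markers. The 8 amacrine markers, mostly Pax6, which RGCs also express, summed to 757, 949 and 637 CPM in E18 replicates 1, 3 and 4, against 527 to 652 at P5. Without Pax6, left out after its values were seen, the other 7 summed to 96.1, 198 and 14.6 CPM in E18 replicates 1, 3 and 4, whereas P5 replicates 6, 8 and 9 had 19.2, 23.1 and 28.7 CPM. Tfap2b, an amacrine transcription factor, was at 47.5, 119 and 1.62 CPM in E18 replicates 1, 3 and 4 and at 1.02 to 1.55 CPM at P5. The 6 endothelial and pericyte markers summed to 72.1, 64.3 and 16.1 CPM in E18 replicates 1, 3 and 4, against 11.2 to 16.0 at P5. This sum was mostly Kdr, at 69.5, 62.9 and 14.1 CPM in E18 replicates 1, 3 and 4 and the only 1 of the 6 called lower at P5. Pecam1 and Tek were called higher at P5, with means going from 0.686 to 2.41 CPM and from 0.830 to 2.88 CPM. The 8 dividing-cell markers summed to 199, 51.2 and 13.3 CPM in E18 replicates 1, 3 and 4, against 7.92 to 19.0 at P5. In these bulk samples, fewer cells of a type and less RNA per cell cannot be told apart.

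Expression of 4 of the 9 genes was higher at P5 and that of none was lower (edgeR quasi-likelihood F-test, p adjusted across the whole table). The genes that rose were Nrxn2, Nlgn3, Lrrtm1 and Lrrtm4, 1 neurexin and 3 of the postsynaptic partners. Nrxn3, Nlgn1, Nlgn2, Lrrtm2 and Lrrtm3 did not pass. All 9 genes had passed the filter on low counts. Among the 16449 genes tested, 22.5% were called higher at P5 and 20.8% lower, against 44.4% and 0 of these 9. In either direction, 43.4% of all genes tested were called, close to the 44.4% of these 9. The median log2 fold change of the 9 was 0.28, and that of all genes tested was -0.0047. For the same 4 genes, every P5 sample lay above every E18 sample, an arrangement found in 28.5% of all genes tested, and in 27.6% every P5 sample lay below every E18 sample, which none of the 9 genes showed. The count of 4 called genes moved to between 3 and 5 when a sample was left out. With E18 replicates 1 and 3 both left out, which leaves a single E18 sample and 1633 genes called in all, none of the 9 was called.

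**Figure D1:**
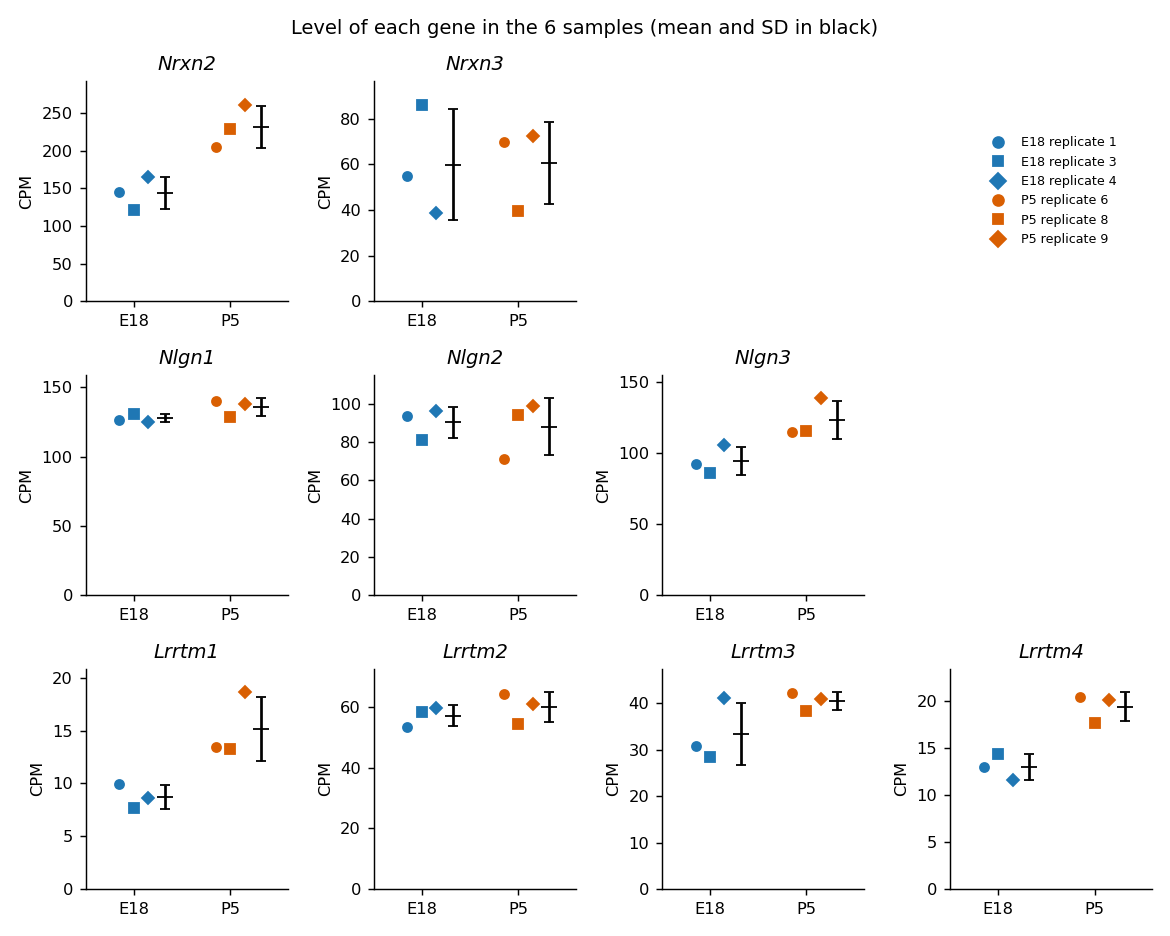
Level of each gene in CPM (vertical axis, linear, from 0) in the 3 E18 samples (blue) and the 3 P5 samples (orange), with the mean and SD of each age in black. The P5 points of Nrxn2, Nlgn3, Lrrtm1 and Lrrtm4 all lie above their E18 points, and those of the other genes overlap.

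Among the presynaptic receptors, Nrxn2 rose and Nrxn3 did not pass the test. Nrxn2 (ENSMUSG00000033768.17, chromosome 19 of mm10, 6418731 to 6544169, plus strand) was at 145, 122 and 165 CPM in E18 replicates 1, 3 and 4 and at 205, 229 and 261 CPM in P5 replicates 6, 8 and 9. The lowest P5 value lay well above the highest E18 value. Its mean went from 144 ± 21.7 to 232 ± 27.97 CPM (SD, n = 3 each), a 1.61-fold rise with a 95% interval of 1.31 to 1.99 (log2 fold change 0.69 with a standard error of 0.133, edgeR adjusted p = 0.00420). It rested on 12031 to 24567 counts per sample, and 4.94% of its exon bases are shared with Slc22a12 on the other strand, which had a mean under 1 CPM at both ages. In the fit with E18 replicate 4 alone at that age, its log2 fold change was 0.48 and it was not called (adjusted p = 0.151 by edgeR).

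Nrxn3 (ENSMUSG00000066392.11, chromosome 12, 88722876 to 90334935, plus strand), a very long gene with alpha and beta starts, varied more within each age than between the ages. It was at 54.8, 86.1 and 38.6 CPM in E18 replicates 1, 3 and 4 and at 69.5, 39.7 and 72.3 CPM in P5 replicates 6, 8 and 9. Both ages held a sample under 40 CPM and a sample over 70 CPM. The means were 59.8 ± 24.2 and 60.5 ± 18.09 CPM (SD, n = 3 each), with a log2 fold change of 0.02 and a 95% interval of -0.67 to 0.70, which runs from 0.629-fold to 1.63-fold (adjusted p = 0.971 by edgeR). The sign of the difference turned when any of 4 samples was left out, and leaving out E18 replicate 4 gave -0.22 whereas leaving out E18 replicate 3 gave 0.37. Among the E18 samples, the order of Nrxn3 was that of the amacrine sum with or without Pax6, with replicate 3 highest and replicate 4 lowest. At P5, replicate 9 was highest in Nrxn3 and in the amacrine sum without Pax6, and replicate 8 was lowest in Nrxn3 and lay between the others in that sum. With Pax6, the amacrine sum was 541, 652 and 527 CPM in P5 replicates 6, 8 and 9, the reverse of the order of Nrxn3. The part of amacrine RNA in the Nrxn3 level was not tested.

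**Figure D2:**
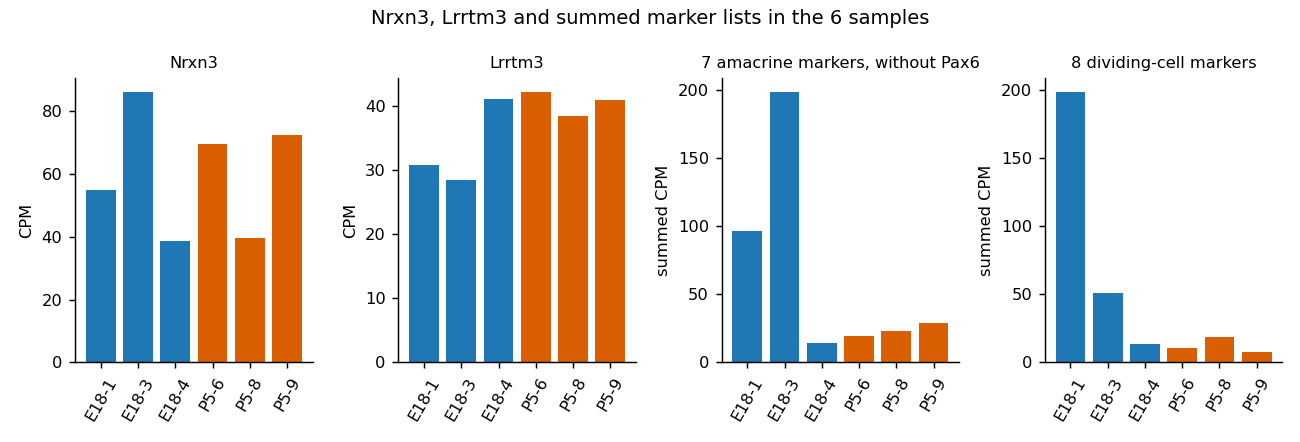
Bars give, for each of the 6 samples, the CPM of Nrxn3 and Lrrtm3 and the summed CPM of 7 amacrine markers (without Pax6) and 8 dividing-cell markers (vertical axes linear, from 0), with E18 in blue and P5 in orange. E18 replicate 3 is highest in Nrxn3 and, at 198 CPM, in the amacrine sum, while E18 replicate 1 is highest in the dividing-cell sum at 199 CPM.

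Of the neuroligins, the cell adhesion partners of neurexins, only Nlgn3 was called, and 3 of the 6 leave-one-out fits no longer called it. Nlgn3 (ENSMUSG00000031302.16, chromosome X, 101299168 to 101325963, plus strand) was at 91.9, 85.8 and 105 CPM in E18 replicates 1, 3 and 4 and at 115, 116 and 138 CPM in P5 replicates 6, 8 and 9. All P5 values exceeded all E18 values, though E18 replicate 4 came close to the lower P5 samples. The means were 94.3 ± 9.93 and 123 ± 13.3 CPM (SD, n = 3 each), a 1.30-fold rise with a 95% interval of 1.09 to 1.56 (log2 fold change 0.38 with a standard error of 0.114, edgeR adjusted p = 0.0256). The call was lost without E18 replicate 1, without E18 replicate 3 or without P5 replicate 9, with adjusted p of 0.0846, 0.112 and 0.0754 by edgeR. Of its exon bases, 41.2% are shared with Gm21986 on the same strand, which has no row in the count table, and how reads over these bases were treated is not known here.

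Nlgn1 (ENSMUSG00000063887.13, chromosome 3, 25426215 to 26332460, minus strand), the excitatory neuroligin, had the smallest standard error of the 9 fold changes, 0.0817 on the log2 scale. It was at 127, 131 and 125 CPM in E18 replicates 1, 3 and 4 and at 140, 128 and 138 CPM in P5 replicates 6, 8 and 9. The value of P5 replicate 8 fell within the E18 range. The log2 fold change was 0.09 with a 95% interval of -0.10 to 0.27, which keeps the change between 0.934-fold and 1.21-fold (adjusted p = 0.412 by edgeR).

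Nlgn2 (ENSMUSG00000051790.15, chromosome 11, 69823122 to 69837784, minus strand), the neuroligin of inhibitory synapses, was at 93.7, 80.9 and 96.1 CPM in E18 replicates 1, 3 and 4. In P5 replicates 6, 8 and 9 it was at 71.3, 94.0 and 98.9 CPM, so that the P5 samples spanned both sides of the E18 samples. Its log2 fold change was -0.04, with a 95% interval of -0.34 to 0.27 (adjusted p = 0.850 by edgeR), and the sign turned without E18 replicate 4 or P5 replicate 6.

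The make-up of the neuroligin family was compared per length, as CPM per kilobase of exon. Nlgn3 made up 27.9%, 28.1% and 30.4% of the summed neuroligin level in E18 replicates 1, 3 and 4 and 35.2%, 32.6% and 35.3% in P5 replicates 6, 8 and 9. The share of Nlgn3 was thus higher in every P5 sample. Nlgn2 held 44.2 ± 1.61% at E18 and 39.3 ± 3.81% at P5, and Nlgn1 held 27.1 ± 2.32% and 26.4 ± 2.96% (SD, n = 3 each). Ratios of 2 genes were taken from CPM, not scaled by length, so that only their change between the ages is read here. The log2 ratio of Nlgn2 over Nlgn3 went from -0.06 ± 0.08 to -0.49 ± 0.19 (SD, n = 3 each), a difference of -0.43 without overlap between the ages. Of the 10 pairs of genes within a family, 3 were without overlap, this one and the pairs of Lrrtm1 over Lrrtm2 and Lrrtm2 over Lrrtm4. Each of the 3 had p = 0.1 in a two-sided exact permutation test, the smallest that this test can give with 3 samples against 3, and an adjusted p of 0.333 over the 10 pairs, so this test could not reach 0.05 for a ratio.

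**Figure D3:**
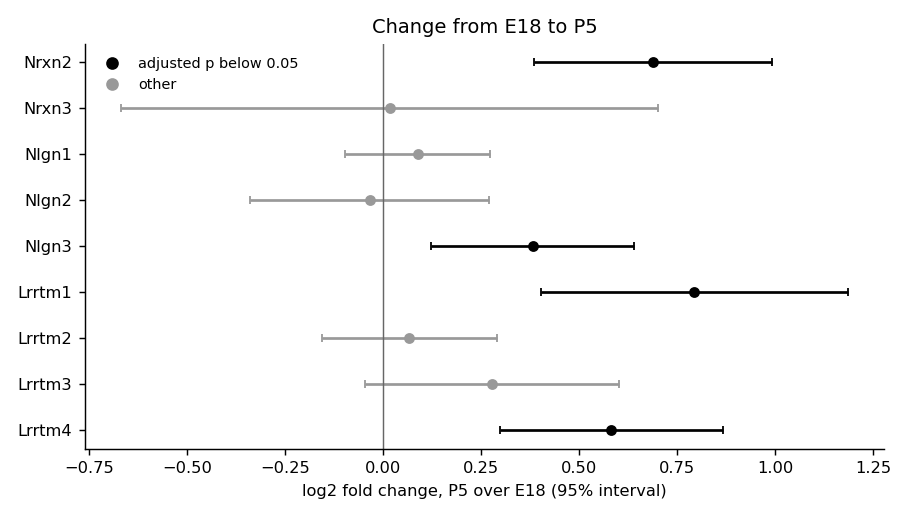
Log2 fold change of P5 over E18 for the 9 genes (horizontal axis) with 95% intervals from edgeR's quasi-likelihood fit. Black points passed an adjusted p of 0.05, and they are Nrxn2 (0.69), Nlgn3 (0.38), Lrrtm1 (0.79) and Lrrtm4 (0.58).

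Of the 4 Lrrtm genes, Lrrtm1 and Lrrtm4, which had the lowest levels, rose, and Lrrtm2 and Lrrtm3 did not pass. Lrrtm1 (ENSMUSG00000060780.2, chromosome 6, 77242689 to 77257791, plus strand), whose promoter is printed above, was at 9.92, 7.66 and 8.59 CPM in E18 replicates 1, 3 and 4 and at 13.5, 13.3 and 18.6 CPM in P5 replicates 6, 8 and 9. The ages did not overlap, and P5 replicate 9 was highest. The means were 8.72 ± 1.14 and 15.1 ± 3.04 CPM (SD, n = 3 each), a 1.73-fold rise with a 95% interval of 1.32 to 2.27 (log2 fold change 0.79 with a standard error of 0.172, edgeR adjusted p = 0.00685). It rested on 778 to 1753 counts per sample.

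Lrrtm4 (ENSMUSG00000052581.13, chromosome 6, 80018877 to 80810143, plus strand), a binding partner of heparan sulfate proteoglycans as well as neurexins, was at 12.9, 14.3 and 11.5 CPM in E18 replicates 1, 3 and 4. It was at 20.4, 17.6 and 20.1 CPM in P5 replicates 6, 8 and 9, each above every E18 sample. This was a 1.497-fold rise with a 95% interval of 1.23 to 1.82 (log2 fold change 0.58 with a standard error of 0.125, edgeR adjusted p = 0.00658). Its exons share 25.1% of their bases with the antisense gene Gm4409, which has no row in the count table. Lrrtm1 and Lrrtm4 were called in each of the 6 fits that left out a single sample. With E18 replicate 4 as the only E18 sample, their log2 fold changes were 0.81 and 0.74, and neither was called (adjusted p = 0.110 and 0.0895 by edgeR).

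Lrrtm2 (ENSMUSG00000071862.3, chromosome 18, 35209003 to 35215024, minus strand), which binds neurexins on the presynaptic side, was at 53.5, 58.5 and 59.9 CPM in E18 replicates 1, 3 and 4 and at 64.4, 54.6 and 60.9 CPM in P5 replicates 6, 8 and 9. These ranges overlapped, with a log2 fold change of 0.07 and a 95% interval of -0.16 to 0.29 (adjusted p = 0.611 by edgeR). Lrrtm3 (ENSMUSG00000042846.8, chromosome 10, 63928472 to 64090277, minus strand) was at 30.8, 28.4 and 41.1 CPM in E18 replicates 1, 3 and 4 and at 42.2, 38.4 and 40.9 CPM in P5 replicates 6, 8 and 9. E18 replicate 4 lay within the P5 range, and the other E18 samples lay below it. The log2 fold change of Lrrtm3 was 0.28 with a 95% interval of -0.05 to 0.60 (adjusted p = 0.145 by edgeR). Without E18 replicate 4 it was 0.45 and passed (adjusted p = 0.0234 by edgeR), and with E18 replicate 4 alone at that age it was -0.03. E18 replicate 4 was also the E18 sample with the lowest amacrine and dividing-cell sums, and the part of other cells in the Lrrtm3 level was not tested.

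Within the family, shares of the summed Lrrtm level were compared per length. Lrrtm2 made up 41.3%, 45.7% and 40.9% in E18 replicates 1, 3 and 4 and 37.7%, 35.8% and 34.7% in P5 replicates 6, 8 and 9. Its share was lower in every P5 sample. Lrrtm1 made up 12.9 ± 1.99% at E18 and 17.99 ± 2.79% at P5, Lrrtm3 34.96 ± 4.30% and 34.5 ± 1.37%, and Lrrtm4 9.49 ± 1.65% and 11.4 ± 0.257% (SD, n = 3 each). The log2 ratio of Lrrtm1 over Lrrtm2 differed by 0.72 between the ages and that of Lrrtm2 over Lrrtm4 by -0.52.

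Lrrtm1, Lrrtm2 and Lrrtm3 lie inside genes of the alpha-catenins, which link cadherins to actin, on the opposite strand. Lrrtm1 lies within Ctnna2 and Lrrtm3 within Ctnna3 with no shared exon base, and Lrrtm2 lies within Ctnna1 with 95 shared exon bases (1.58% of its exons). Ctnna1 and Ctnna2 were called lower at P5, and the genes within them were not. Ctnna1 fell from 46.5 ± 5.84 to 21.4 ± 2.59 CPM (log2 fold change -1.12, adjusted p = 0.000537 by edgeR), while Lrrtm2 within it did not pass. Ctnna2 fell from 551 ± 34.1 to 432 ± 49.9 CPM (log2 fold change -0.35, adjusted p = 0.0268 by edgeR; SD, n = 3 each), while Lrrtm1 within it rose. Of these 3 host genes, 2 were thus called lower, where 20.8% of all genes tested were. Only 1 was called without E18 replicate 3, without E18 replicate 4, without P5 replicate 6 or without P5 replicate 9. Ctnna3 was near 0, with 19 to 34 counts per sample, and was not called (adjusted p = 0.720 by edgeR). Whether the counting used strand is not given, and reads of the host on the other strand could not be told from those of the nested gene.

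The levels of the 9 genes per length were set in order. At E18, Nlgn2 was highest at 15.6 ± 1.41 CPM per kilobase of exon (SD, n = 3), followed by Nrxn2 at 10.4 ± 1.57, Nlgn3 at 10.2 ± 1.07, Lrrtm2 at 9.51 ± 0.564, Nlgn1 at 9.51 ± 0.220 and Lrrtm3 at 7.86 ± 1.59. Nrxn3 at 4.74 ± 1.92, Lrrtm1 at 2.88 ± 0.374 and Lrrtm4 at 2.10 ± 0.226 were lowest. Of the 8 pairs of neighbours in this order, 6 overlapped between samples, and Nlgn2 over Nrxn2 and Lrrtm1 over Lrrtm4 did not. At P5 the order began with Nrxn2 at 16.8 ± 2.03 CPM per kilobase, Nlgn2 at 15.2 ± 2.54 and Nlgn3 at 13.3 ± 1.43, followed by Nlgn1 at 10.1 ± 0.479, Lrrtm2 at 9.96 ± 0.828 and Lrrtm3 at 9.53 ± 0.449. Lrrtm1 at 4.99 ± 1.00, Nrxn3 at 4.80 ± 1.44 and Lrrtm4 at 3.15 ± 0.251 closed it. Again 6 of 8 neighbours overlapped, and the steps from Nlgn3 to Nlgn1 and from Lrrtm3 to Lrrtm1 did not. The highest mean was 7.42 times the lowest at E18 and 5.33 times at P5. Neurexin levels depend on the length used, since these genes have many alternative exons. With the longest annotated transcript as length, Nrxn2 came first at both ages, at 21.6 CPM per kilobase at E18 and 34.8 at P5. With the RefSeq transcript as length, which gives no value for Lrrtm4, Nrxn3 was at 12.9 CPM per kilobase at E18 and 13.1 at P5, in place 3 of the order at E18 and place 4 at P5.

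**Figure D4:**
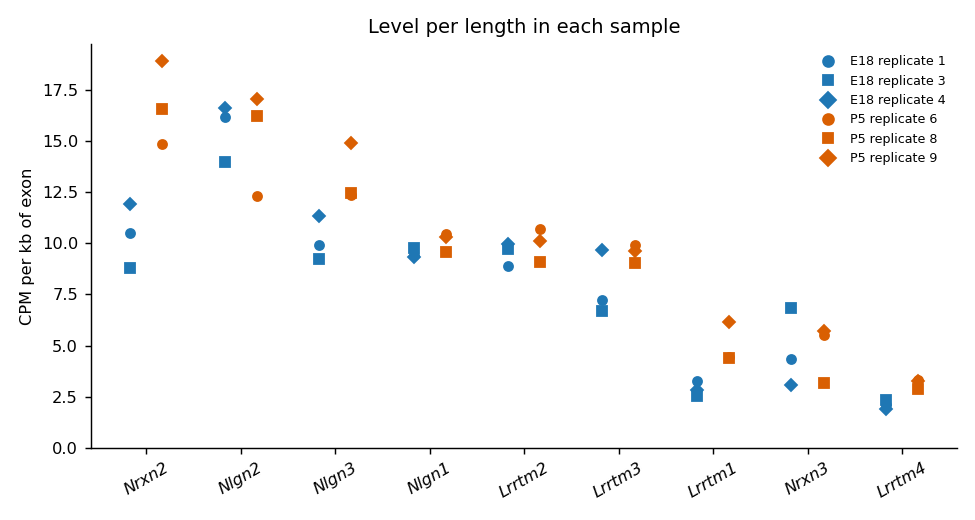
Level per length, in CPM per kilobase of exon (vertical axis, linear, from 0), of the 9 genes in each sample, ordered by the P5 mean, with E18 in blue and P5 in orange. Nrxn2, Nlgn2 and Nlgn3 are the highest at P5, and Lrrtm1, Nrxn3 and Lrrtm4 the lowest.

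Binding partners, cytoplasmic adaptors and splicing factors of these proteins were then followed, in lists of 31 genes that were all tested. Of these, 13 rose and 5 fell, where 22.5% of all genes tested were called higher and 20.8% lower, with a median log2 fold change of 0.26. The first list held 10 secreted ligands, which bind neurexins in the cleft, and 8 of them were called, 5 higher and 3 lower, against 43.4% of all genes tested called in either direction. Among the neurexophilins, Nxph1 rose from 2.09 ± 0.2201 to 7.40 ± 1.01 CPM (SD, n = 3 each; log2 fold change 1.82 with a standard error of 0.184, edgeR adjusted p = 0.000312) and Nxph3 rose by a log2 fold change of 1.35 to 8.71 ± 1.06 CPM (adjusted p = 0.000903 by edgeR). Nxph2 rose as well, from 5 to 7 counts per E18 sample to 23 to 29 counts per P5 sample. Nxph4 went the other way and fell, from 57, 91 and 23 counts in E18 replicates 1, 3 and 4 to 4, 16 and 9 counts in P5 replicates 6, 8 and 9. Some cerebellins join neurexins to glutamate receptors of the delta type. In this family, Cbln4 rose from 3.75 ± 1.06 to 10.2 ± 1.06 CPM (log2 fold change 1.45, adjusted p = 0.00133 by edgeR) and Cbln1 fell from 13.7 ± 1.68 to 9.50 ± 1.31 CPM (log2 fold change -0.52, adjusted p = 0.0229 by edgeR; SD, n = 3 each). The C1q-like ligands split, since C1ql2 rose and C1ql3 fell, both from under 1 CPM at either age. Cbln2 and Cbln3 had log2 fold changes of -0.29 and 0.63 and did not pass. With genes kept only at 1 CPM or more in 3 samples, 4 of the 10 were called, as Nxph2, Nxph4, C1ql2 and C1ql3 were then not tested.

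Of 9 other surface partners, 4 rose and none fell, against 22.5% and 20.8% of all genes tested. Grid1, a glutamate receptor of the delta type, rose from 29.98 ± 3.48 to 46.0 ± 1.55 CPM (SD, n = 3 each), with a log2 fold change of 0.62 (adjusted p = 0.00272 by edgeR). Igsf21, a neurexin 2 partner of inhibitory synapses, rose by 1.00 on the log2 scale (adjusted p = 0.00169 by edgeR). Clstn3, a neurexin-binding calsyntenin, rose by 0.57 on the log2 scale (adjusted p = 0.0287 by edgeR), with overlap between the ages. Mdga1 and Mdga2, which hold neuroligins away from neurexins, had log2 fold changes of -0.14 and 0.11, and Mdga2 was at 206 ± 11.2 and 222 ± 26.3 CPM (SD, n = 3 each). Dag1, Lphn1 and Gpc4 had log2 fold changes of 0.33, 0.07 and -0.94 and did not pass either.

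Of 9 intracellular partners, 4 rose and none fell, beside the same 22.5% and 20.8% over all genes tested. On the presynaptic side, where neurexins bind a scaffold of Cask, Mint1 and Veli, Apba1 (Mint1) rose from 259 ± 42.7 to 502 ± 81.0 CPM (log2 fold change 0.95 with a standard error of 0.149, edgeR adjusted p = 0.00168; SD, n = 3 each). The Veli genes Lin7a and Lin7b rose by 0.50 and 1.01 on the log2 scale (adjusted p = 0.00433 and 0.0135 by edgeR), and Lin7c had a log2 fold change of -0.31 and did not pass. Cask itself was at 330 ± 11.7 and 376 ± 23.8 CPM (SD, n = 3 each) and did not pass (adjusted p = 0.0988 by edgeR). On the postsynaptic side, Gphn, the scaffold of inhibitory synapses, rose by 0.65 on the log2 scale (adjusted p = 0.00900 by edgeR). Dlg4 (PSD-95), the excitatory scaffold that neuroligin 1 binds, was at 154 ± 14.002 and 157 ± 12.7 CPM (SD, n = 3 each; log2 fold change 0.03, 95% fold interval 0.870 to 1.20). Magi2 had a log2 fold change of -0.07. Without P5 replicate 8, 7 of the 9 intracellular partners were called, in a fit that called 8796 genes in all, against 7135 with all samples.

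The STAR family of RNA-binding proteins regulates an alternative exon of neurexins, and 2 of its 3 genes fell, against 20.8% of all genes tested. Khdrbs3 went from 210 ± 19.6 to 117 ± 25.0 CPM (log2 fold change -0.84 with a standard error of 0.1502, edgeR adjusted p = 0.00287) and Khdrbs1 from 219 ± 10.3 to 159 ± 12.6 CPM (log2 fold change -0.46, adjusted p = 0.00472 by edgeR; SD, n = 3 each). Khdrbs2 was at 28.5 ± 1.89 and 27.0 ± 5.14 CPM (SD, n = 3 each) and did not pass. Counts per gene do not separate neurexin isoforms, so exon use was not analysed here.

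**Figure D5:**
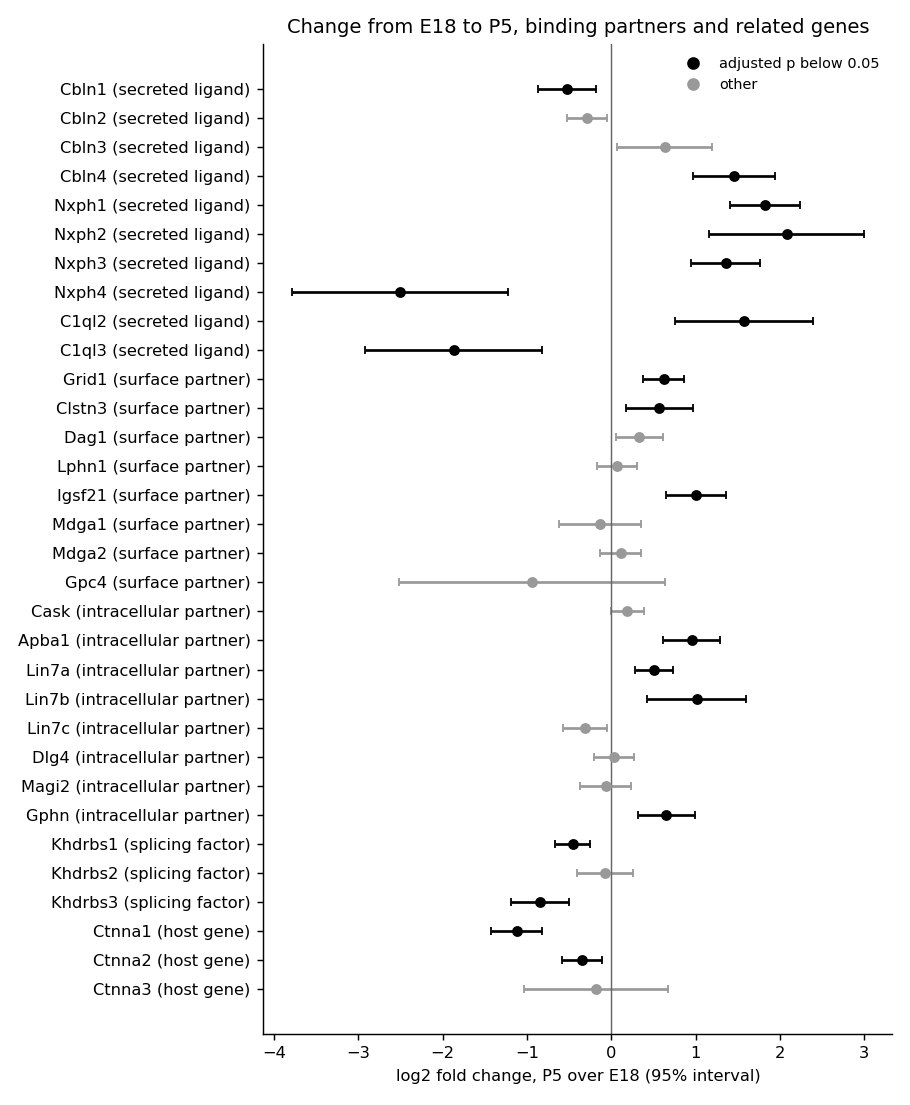
Log2 fold change of P5 over E18 (horizontal axis) with 95% intervals from edgeR's quasi-likelihood fit for 32 genes, partners and the 3 alpha-catenin host genes, with black points past an adjusted p of 0.05. Points to the right of 0 are higher at P5, the farthest being Nxph2 (2.08), and Nxph4 (-2.51) is farthest to the left.

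Genes with a pattern over the 6 samples most like that of the gene of each family with the highest mean CPM, not scaled by length, were sought among the 13426 tested genes that averaged 1 CPM or more. Likeness was the root mean square difference of log2 CPM after centring each gene on its own mean, so age and sample differences both enter. Closest to Nrxn2 were Iqsec2 (0.0333), Pcdha1 (0.0555) and Shank3 (0.0558), with log2 fold changes of 0.73, 0.72 and 0.65. Pcdha1 shares exons with the other genes of its cluster, so its count is uncertain. Closest to Nlgn1 were Fastkd3 (0.0241), Rbx1 (0.0254) and Gabarapl2 (0.0276), and closest to Lrrtm2 were Rit1 (0.0192), Ilk (0.0208) and Smdt1 (0.0210). None of these last 6 genes was called, with log2 fold changes of 0.06 to 0.13.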

How the data were processed

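RNA from 3 E18 and 3 P5 samples of immunopanned RGCs was sequenced. Alignment by the authors was with STAR to mm10, and counting with HT-seq on RefSeq genes. PolyA RNA is named in the labels but ribosomal RNA depletion in the protocol. The authors deposited raw counts, used here, and normalized counts, a library-scaled signal that entered no test. Their log2 fold changes, p-values with false discovery rates and a rank (an "other" value), also deposited by the authors, were not used. The strand setting is not given in the sources used here. For E18 replicate 1 the column name holds the numbers 2 and 5 too, and whether it pools preparations is unknown. No label says that samples came from separate animals. The p-values thus weigh the difference between the ages against the spread between these samples, which need not be that between animals. Within an age, the samples differed by 30.5 to 141 chi-square units per degree of freedom.

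TMM scaling was followed by a quasi-likelihood F-test (edgeR 4.0.16, R 4.3.3) on 16449 genes left by the filterByExpr function. The adjustment was that of Benjamini and Hochberg across these genes, with a threshold of 0.05. On simulated counts for 16294 genes, 57.1% of 98 genes changed by 1 on the log2 scale and 9% of 100 genes changed by 0.5 were recovered, with 2 false calls. Few genes were changed in the simulation, whereas 43.4% of the genes tested were called in the data. The adjustment is stricter where few genes change, so these rates do not give the recovery in this comparison. Depth was 81213639 to 114512853 counts. Ratios were tested by exact permutation. Gene positions and lengths came from GENCODE for mm10, promoters from RefSeq. The genes named are the 9 members, each partner that passed the threshold, and, for the gene of each family with the highest mean CPM, the 3 most like it. Partners that did not pass were named after their values were seen. Some genes of the partner lists are counted with their list but not reported singly here. Members and lists were chosen with earlier results of these data known. Alternatives were DESeq2 1.42.0, the likelihood ratio test of edgeR, other normalizations and filters, other gene lengths and the omission of samples.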

Additional observations from a re-analysis of the deposited data

How the results depend on the processing

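No paired analysis was possible because the ages share no replicate number. The count of 4 called members held under each normalization, filter and test tried, DESeq2 included. Leaving out a sample gave 3 to 5 called members, 4575 to 8796 genes called in all, 7 to 9 secreted ligands, 3 to 4 surface partners, 3 to 7 intracellular partners, 2 splicing factors and 1 to 2 host genes. The log2 fold changes then ran from 0.58 to 0.80 for Nrxn2, -0.22 to 0.37 for Nrxn3, 0.07 to 0.14 for Nlgn1, -0.12 to 0.11 for Nlgn2, 0.29 to 0.47 for Nlgn3, 0.62 to 0.90 for Lrrtm1, 0.01 to 0.15 for Lrrtm2, 0.17 to 0.45 for Lrrtm3 and 0.51 to 0.66 for Lrrtm4. Nrxn3 was reversed at -0.05 without E18 replicate 1, -0.22 without E18 replicate 4, -0.08 without P5 replicate 6 and -0.13 without P5 replicate 9. Nlgn2 was reversed at 0.01 without E18 replicate 4 and 0.11 without P5 replicate 6. The change in the log2 ratio of Nlgn1 over Nlgn2 ran from -0.038 to 0.23, and was negative without P5 replicate 6.

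A fit with E18 replicate 4 as the only E18 sample was chosen after seeing the data, and assumes that this sample varies like those of P5. It called 1633 genes, 0 members, 3 secreted ligands, 1 surface partner, 0 intracellular partners, 1 splicing factor and 1 host gene. Its log2 fold changes were 0.48 for Nrxn2, 0.64 for Nrxn3, 0.11 for Nlgn1, -0.14 for Nlgn2 and 0.21 for Nlgn3. Those of the Lrrtm genes were 0.81 for Lrrtm1, -0.0086 for Lrrtm2, -0.031 for Lrrtm3 and 0.74 for Lrrtm4. With all samples, the value for Nrxn3 was 0.016. Fewer samples were then fitted, and the cause of each lost call was not tested further. With 1 CPM required in 3 samples, 4 secreted ligands were called, as fewer were tested.

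Levels per kilobase moved with the length used. With the longest annotated transcript they were, at E18 and P5, 21.6 and 34.8 for Nrxn2, 7.55 and 7.64 for Nrxn3, 10.8 and 11.5 for Nlgn1, and 2.91 and 4.36 for Lrrtm4, with 10.1 for Lrrtm2 at E18 and 10.4 for Lrrtm3 at P5. With the RefSeq transcript, a length chosen after seeing the data, they were 28.1 and 45.3 for Nrxn2, 12.9 and 13.1 for Nrxn3, 10.8 and 11.5 for Nlgn1, and 3.47 and 6.01 for Lrrtm1, with 18.03 for Nlgn2 and 10.1 for Lrrtm2 at E18 and 10.4 for Lrrtm3 at P5. Shares by the longest transcript were 42.5% for Nlgn2 at E18, and 11.97% at E18 and 14.3% at P5 for Lrrtm4.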
